A study of Mus musculus with 2 samples.

Results

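CD8 T cells that carried transcripts of G2 and mitosis were examined among the immune cells of mouse melanomas. The cells were chosen by their own UMI counts, where a UMI (unique molecular identifier) marks 1 captured mRNA molecule. A cell was taken when it held at least 2 UMIs over *Cd3d*, *Cd3e* and *Cd3g*, at least 2 over *Cd8a* and *Cd8b1*, none of *Cd4*, and at least 5 over *Cdc20*, *Ccnb2*, *Ube2c* and *Cenpa*, 4 genes that are transcribed mainly in G2 and mitosis. Of 14152 cells in 2 libraries, 13470 had at most 25% mitochondrial UMIs, 4776 of these were CD8 T cells by the first 3 criteria, and 1611 met the whole gate. These G2/M-gated cells were 913 of 2664 CD8 T cells with PBS and 698 of 2112 with creatine. They are described between the libraries and against CD8 T cells with no UMI of *Mki67* or *Top2a*. Of the 1057 and 836 CD8 T cells without either gene, 69 and 42 were in the gate and 61 and 47 held at least 5 UMIs over 6 S-phase genes. The remaining 927 and 747, called non-dividing here, were the reference.

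Both libraries came from C57BL/6J mice that bore subcutaneous B16-OVA tumors, a melanoma line made to express ovalbumin, and the methods describe young adult male animals. The control mice were given PBS and the others 10.5 mg of creatine per day by intraperitoneal injection, and living CD45.2+ cells were sorted from tumors pooled for each library. One account gives day 14 and 4 tumors per library, but the study's sources also give another day and another number of mice, so neither is certain. The protocol entry of the control library names the creatine injection, but its title and treatment name an untreated PBS sample, and every ratio between the libraries rests on that assignment. With 1 library per group no test between groups was possible, and each interval below is an exact 95% interval that covers counting error only.

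A dividing T cell copies its DNA in S phase, passes G2, and separates its chromosomes in mitosis. Entry into mitosis is driven by the kinase CDK1 with its B-type cyclins, and exit by the anaphase-promoting complex, a ubiquitin ligase that CDC20 activates and that works with the enzyme UBE2C to mark cyclin B and securin for destruction. CENPA is the histone H3 variant of centromeres. CD8 T cells recognise antigen, divide, and kill target cells with perforin and granzymes, and the capacity to expand in tumors is known to rest largely on a TCF7-expressing subset.

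The promoters of the 4 gate genes and of *Cdk1* and *Plk1*, the kinases that carry a cell into and through mitosis, are shown because such genes are known to share a pair of short motifs. CCAAT is bound by NF-Y, and TTTGAA is the core of the cell cycle homology region, through which MuvB complexes act. Each window runs from 250 bases before to 50 bases after the annotated start, 5′ to 3′ on the gene's own strand, taken from RefSeq for GRCm38.p6. Capitals mark CCAAT and TTTGAA, or ATTGG and TTCAAA where the motif lies on the other strand.
Cdc20: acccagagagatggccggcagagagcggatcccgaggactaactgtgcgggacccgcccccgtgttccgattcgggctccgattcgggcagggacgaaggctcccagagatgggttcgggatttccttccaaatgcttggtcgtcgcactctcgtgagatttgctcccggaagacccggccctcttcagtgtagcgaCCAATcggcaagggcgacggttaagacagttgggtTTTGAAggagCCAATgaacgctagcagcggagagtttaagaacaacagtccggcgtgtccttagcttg
Ccnb2: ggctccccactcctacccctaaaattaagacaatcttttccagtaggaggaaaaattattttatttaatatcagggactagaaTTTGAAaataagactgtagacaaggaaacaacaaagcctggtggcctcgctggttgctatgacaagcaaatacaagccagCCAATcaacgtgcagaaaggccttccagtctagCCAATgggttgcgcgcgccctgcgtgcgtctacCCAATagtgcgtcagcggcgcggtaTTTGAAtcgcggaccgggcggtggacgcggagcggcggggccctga
Ube2c: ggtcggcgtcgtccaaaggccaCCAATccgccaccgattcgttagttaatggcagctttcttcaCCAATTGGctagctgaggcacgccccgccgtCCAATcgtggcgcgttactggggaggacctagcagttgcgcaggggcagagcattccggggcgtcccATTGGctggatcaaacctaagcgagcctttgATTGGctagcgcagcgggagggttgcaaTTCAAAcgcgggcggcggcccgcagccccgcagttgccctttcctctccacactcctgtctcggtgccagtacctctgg
Cenpa: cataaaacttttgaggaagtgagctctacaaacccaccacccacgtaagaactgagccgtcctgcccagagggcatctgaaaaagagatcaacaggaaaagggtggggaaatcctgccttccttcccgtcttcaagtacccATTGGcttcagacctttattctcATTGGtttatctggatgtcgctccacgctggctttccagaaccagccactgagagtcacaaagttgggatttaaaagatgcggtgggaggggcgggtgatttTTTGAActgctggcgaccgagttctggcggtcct
Cdk1: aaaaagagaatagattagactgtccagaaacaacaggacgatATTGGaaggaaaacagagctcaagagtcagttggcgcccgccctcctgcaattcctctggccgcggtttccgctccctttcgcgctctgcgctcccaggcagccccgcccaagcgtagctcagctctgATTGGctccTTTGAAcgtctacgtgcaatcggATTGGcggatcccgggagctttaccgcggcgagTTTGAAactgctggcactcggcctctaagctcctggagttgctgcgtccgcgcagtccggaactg
Plk1: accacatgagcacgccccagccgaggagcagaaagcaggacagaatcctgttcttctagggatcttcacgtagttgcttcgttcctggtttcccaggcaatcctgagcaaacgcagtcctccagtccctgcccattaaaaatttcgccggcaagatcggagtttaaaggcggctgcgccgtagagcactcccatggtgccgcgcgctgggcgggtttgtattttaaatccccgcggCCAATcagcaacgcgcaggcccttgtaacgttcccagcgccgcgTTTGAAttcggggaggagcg
The windows are chr4:118437294-118437593 (minus strand) for *Cdc20*, chr9:70421505-70421804 (minus) for *Ccnb2*, chr2:164769679-164769978 (plus) for *Ube2c*, chr5:30666636-30666935 (plus) for *Cenpa*, chr10:69352863-69353162 (minus) for *Cdk1* and chr7:122159185-122159484 (plus) for *Plk1*. They hold 2, 3, 6, 2, 3 and 1 copies of CCAAT and 1, 2, 1, 1, 2 and 1 copies of TTTGAA on either strand, and CCAATTGG in *Ube2c* counts once for each strand. Over 101 further G2/M genes in 7 lists (CDK1 partners, mitotic kinases, checkpoint, kinetochore, spindle, condensin and cohesin, and the anaphase-promoting complex), 85 genes had 97 promoters in the table. Of these promoters, 63.92% held CCAAT and 52.58% held TTTGAA, against 37.41% and 17.89% of all 32851 promoters. Both motifs stood together in 38.14% against 6.953%. Among 29 promoters of DNA replication genes, CCAAT was present in 58.62% and TTTGAA in 10.34%, so that the lists differed in the second motif. Within the G2/M lists TTTGAA ranged from 85.71% of 28 promoters of spindle and motor genes to 11.76% of 17 promoters of the anaphase-promoting complex. A match of letters is a description and not a site of binding.

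The T cell markers of the gate were well above its limits, which describes the gated cells and is no test of their identity. Mean UMIs per gated cell were 11.9 for *Cd8a*, 18.4 for *Cd3d* and 26.5 for *Cd3g* in the control library and 16.6, 22.1 and 34.4 in the creatine library, and *Cd4* was at 0 in both by the gate. All 4 gate genes were found together in 63.1% of gated control cells and 60.2% of gated creatine cells. The median cell held 21 and 22 gate UMIs, and the highest 156 and 165. *Mki67* or *Top2a*, neither of them in the gate, gave a UMI in 844 of 913 and 656 of 698 gated cells. At least 5 UMIs over the 6 S-phase genes (*Mcm3*, *Mcm5*, *Mcm6*, *Ung*, *Gins2* and *Cdc6*) were held by 66.6% and 75.9% of gated cells, so S-phase transcripts were common in cells named for G2 and mitosis, and their position in the cycle was not tested. Just inside the threshold, the 55 and 52 cells with 5 gate UMIs had a mean of 0.309 and 0.635 UMIs of *Ccnb1*. Just outside, the 95 and 58 cells with 4 gate UMIs had 0.158 and 0.207. The 138 and 124 cells with 3 gate UMIs had 0.210 and 0.218, and the 45 and 42 cells with 6 had 0.267 and 0.452. The mean thus did not rise with each further gate UMI in either library.

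The gated cells were the deepest CD8 T cells. Their median was 20388 UMIs in control cells and 23392.5 in creatine cells, against 6580 and 7720 in non-dividing cells. The ratio of the medians was 3.10 and 3.03, and that of the median numbers of detected genes 2.07 and 2.05. The gate thus took 34.3% and 33.0% of the CD8 T cells but 55.9% and 53.9% of their UMIs. CD8 T cells with fewer than 5 gate UMIs and at least 5 S-gene UMIs, called S-gene cells, lay between, at 14213 and 17274. Mitochondrial UMIs took a median of 4.9% and 4.8% of UMIs in gated cells and 4.8% in non-dividing cells of both libraries. A gate on raw UMIs takes deep cells more easily. Levels below are in CPM unless stated, that is, the UMIs of a gene summed over the cells of a class scaled to 1000000 UMIs of that class. This scales the sums to equal totals but does not undo the choice of deep cells.

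**Figure D1:**
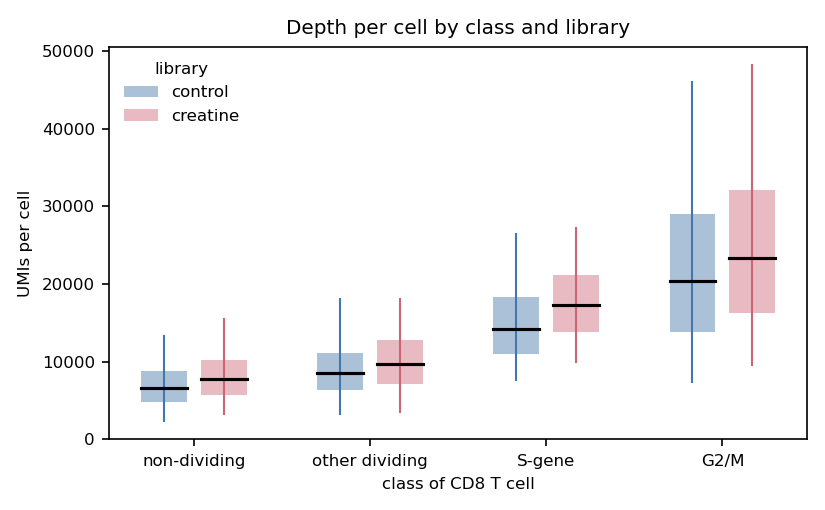
UMIs per cell (linear y axis) in 4 classes of CD8 T cell (x axis) of the control and creatine library. Black lines are medians, boxes quartiles and vertical lines the 5th to 95th percentiles over cells; the G2/M-gated cells have the highest medians, 20388 and 23392.5.

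UMIs of genes that mark other lineages were counted in the gated cells, and their source was not tested. Over 25 markers of macrophages, dendritic cells, B cells, neutrophils, NK cells, regulatory T cells and melanoma, gated cells held 790 CPM in control and 420 CPM in creatine cells. At least 2 such UMIs were found in 88.1% and 68.6% of gated cells. The median gated cell held 221 and 102 CPM, and the median non-dividing cell 329 and 173. Doublets were not removed. In 120 control and 30 creatine gated cells these markers exceeded 500 CPM, and without such cells the sums were 203 and 117 CPM. Of 30 cell barcodes that occurred in both libraries, 3 control and 1 creatine cell were gated.

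The share of CD8 T cells in the gate was 34.3% (exact Clopper-Pearson interval 32.5 to 36.1) in control cells and 33.0% (31.0 to 35.1) in creatine cells, with intervals that overlapped. The creatine library was the deeper. In a second gate, CD8 T cells with fewer than 5000 UMIs were left out, the others were thinned to 5000, and the limit was 3 UMIs. This kept 2327 of 2664 control and 1932 of 2112 creatine cells, so the cells counted changed as well as the depth. Of these, 752 control cells (32.3%, 30.4 to 34.3) and 516 creatine cells (26.7%, 24.7 to 28.7) passed, and the intervals no longer overlapped. Without cells that held 2 or more UMIs of the other-lineage markers, 109 of 647 control cells (16.9%) and 219 of 919 creatine cells (23.8%) were gated, so the order of the libraries turned. That filter is on raw UMIs and left out most gated cells. Each library is 1 pool of tumors, so the spread between mice is unknown.

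G2/M genes that the gate did not use stood far above the non-dividing cells, which describes the gate and is no test of it. A gene was counted as past the fold when the log2 ratio of CPM was at least 1 in size with the same sign in both libraries and the CPM intervals did not overlap. This held for 802 of 12572 genes with at least 20 UMIs in the higher direction, 6.38%, and for 450 in the lower, 3.58%. As UMIs per cell in place of CPM, 8987 were higher and 20 lower. In CPM, 515 were higher and 176 lower without cells of 2 or more other-lineage UMIs, 365 and 146 with gated cells under 5 S-gene UMIs alone, and 458 were higher against non-dividing cells above the lower quartile of gated depth. With the 61 and 47 cells added to the reference, 708 were higher and 396 lower. Of the 101 G2/M genes, 89 were higher and none lower, with a median log2 ratio of 4.00 in control and 4.24 in creatine cells, where the medians of all genes were 0.00 and 0.04. The sum of the 101 genes was 13330 and 14406 CPM in gated cells against 1946 and 2020 CPM in non-dividing cells.

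CDK1 and its partners were past the fold in 12 of 12 genes. *Cdk1* stood at 194 CPM in gated control cells and 202 CPM in gated creatine cells, against 5.18 and 5.16 CPM in non-dividing cells. *Ccnb1*, the cyclin B1 that activates CDK1 at mitotic entry, stood at 126 and 119 CPM against 5.18 and 6.29 CPM. *Ccna2*, the cyclin of S phase and G2, stood at 182 and 194 CPM against 4.87 and 3.87 CPM. In each of these genes both gated values lay above both non-dividing values, and the 2 libraries lay close together. A UMI of *Ccnb1* was found in 69.0% and 68.8% of gated cells and in 3.56% and 4.28% of non-dividing cells at full depth. With cells of fewer than 2000 UMIs left out and the others thinned to 2000, these shares were 18.6% and 17.8% against 0.901% and 0.681%. As a cell type that should lack the gene, macrophage-marker cells outside the CD8 T cells were taken, with at least 5 UMIs over *Csf1r*, *C1qa* and *C1qb* and none of the CD3 genes, *Mki67* or *Top2a*. Of these, with median depths of 9929 and 9652 UMIs, 6 of 601 control cells (0.998%) and 0 of 545 creatine cells held one after thinning, and a count of 0 allows up to 0.675% there by the exact interval.

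The mitotic kinases were past the fold in 13 of 13 genes, with median log2 ratios of 4.89 and 5.17. *Plk1* stood at 85.9 and 86.9 CPM in gated cells against 3.05 and 2.42 CPM. *Aurkb*, the catalytic subunit of the chromosomal passenger complex, stood at 119 and 118 CPM against 4.57 and 4.19 CPM. Again the gated values of both libraries were nearly alike. The kinetochore and centromere genes, which attach chromosomes to microtubules, were past the fold in 12 of 12, among them *Cenpf* at 334 and 311 CPM against 3.05 and 3.39 CPM. Passenger and checkpoint genes were past it in 9 of 10. Among them *Birc5*, which encodes the passenger protein survivin, stood at 383 and 376 CPM against 9.44 and 5.81 CPM, and *Zwint* did not pass, at 56.7 and 59.0 CPM against 33.3 and 35.5 CPM.

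Spindle and motor genes were past the fold in 27 of 27, with median log2 ratios of 4.68 and 4.80. *Kif20a*, a kinesin of the central spindle, stood at 50.8 and 54.2 CPM against 2.44 and 0.968 CPM. Of 12 condensin, cohesin and separase genes 11 were past it, and the exception was *Pttg1*, which encodes securin, at 66.5 and 79.2 CPM against 55.1 and 67.2 CPM. The anaphase-promoting complex differed from the other G2/M lists: 5 of 15 genes passed, with median log2 ratios of 0.77 and 0.69. Those were the subunit genes *Anapc5* and *Anapc15*, the activator *Fzr1*, the ubiquitin-conjugating enzyme *Ube2s* and the inhibitor *Fbxo5*. *Fbxo5* had the largest ratio of them, at 90.6 and 107 CPM against 5.94 and 4.03 CPM. Of the 10 genes that did not pass, *Cdc27* stood at 23.5 and 23.3 CPM against 13.4 and 13.7 CPM.

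DNA replication genes were higher in 30 of 30, with medians of 2.48 and 3.02. *Mcm5*, a subunit of the replicative helicase, stood at 130 and 148 CPM against 16.4 and 13.7 CPM. *Rrm2*, the S-phase subunit of ribonucleotide reductase, stood at 172 and 223 CPM against 8.07 and 3.87 CPM. Replication-dependent histones were past the fold in 15 of 15, with medians of 3.57 and 3.29. *Hist1h1b* stood at 598 and 566 CPM against 10.0 and 6.29 CPM. Most mRNAs of such histones end in a stem-loop without a poly(A) tail, and their copies are close in sequence, so the counts of single copies are uncertain. Of 7 linker and variant histones 3 passed, *H2afz*, *H2afx* and *H2afv*.

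Of 15 DNA damage and p53 genes 8 were past the fold upward and 1 downward. Those upward included the repair and checkpoint genes *Brca1*, *Brca2*, *Rad54l*, *Chek1* and *Fanci* and the p53 targets *Cdkn1a* and *Phlda3*. *Brca1*, which acts in repair by homologous recombination, stood at 28.2 and 35.8 CPM against 1.07 and 0.968 CPM. *Cdkn1a*, which encodes the CDK inhibitor p21, stood at 74.8 and 60.7 CPM against 25.3 and 20.8 CPM, but turned in direction against deep non-dividing cells, at log2 ratios of -0.65 and -1.22. These were the 43 and 33 non-dividing cells with at least 13844 and 16232.8 UMIs, the lower quartiles of the gated cells, which set a floor on depth and did not make it equal. Of 15 G1 cyclins and CDK inhibitors, 3 were higher (*Cdkn1a*, *Cdkn2a* and *Rbl1*) and 2 lower (*Ccnd2* and *Btg1*).

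**Figure D2:**
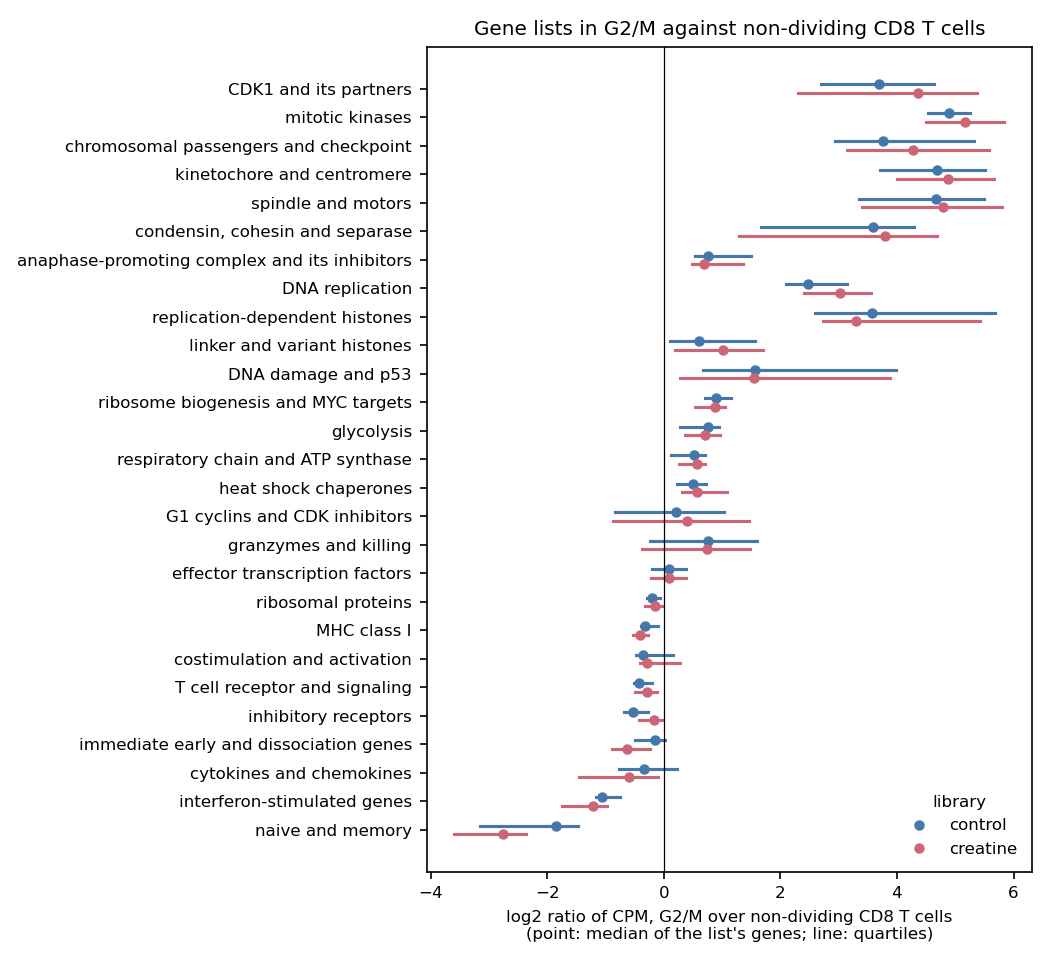
Log2 ratio of CPM, G2/M-gated over non-dividing CD8 T cells (x axis), for gene lists (y axis) in the control and creatine library. Points are medians over the genes of a list and lines quartiles; medians of mitotic lists lie between 3.58 and 5.17, except for the anaphase-promoting complex at 0.77 and 0.69.

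Of 21 ribosome biogenesis and MYC target genes 8 were past the fold, with medians of 0.89 and 0.88. *Ncl*, the nucleolar protein nucleolin, stood at 1601 and 1219 CPM against 680 and 608 CPM. Of 20 glycolytic genes 4 passed (*Tpi1*, *Ldha*, *Slc16a3* and *Eno3*), and *Ldha*, which makes lactate, stood at 1336 and 1209 CPM against 559 and 533 CPM. The glycolytic medians were 0.76 and 0.70, and in creatine cells -0.29 against the deep non-dividing cells and 0.46 with the S-gene cells without *Mki67* or *Top2a* added to the reference. With these added, *Ncl* had a log2 ratio of 0.90 in creatine cells, below the fold. Of 10 heat shock chaperones that could be compared *Hsp90aa1* was higher, and no immediate early gene of 15 passed. None of 28 respiratory chain and ATP synthase genes passed, with medians of 0.51 and 0.57. None of 30 ribosomal protein genes passed either, with medians of -0.20 and -0.15, and none of the 13 genes of the mitochondrial genome, whose sum was 50840 and 49391 CPM in gated and 49994 and 49338 CPM in non-dividing cells. Of 7 genes of creatine transport and metabolism, 5 had enough UMIs to be compared and none passed. *Ckb*, a cytosolic creatine kinase, stood at 12.6 and 12.1 CPM against 15.1 and 9.19 CPM, and *Slc6a8*, the creatine transporter, at 1.83 and 1.45 CPM against 0.761 and 1.94 CPM.

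Genes of naive and memory T cells were lower: 10 of 12 were past the fold downward, with medians of -1.85 and -2.75. *Tcf7*, the transcription factor of stem-like T cells, stood at 6.90 CPM in gated control and 7.12 CPM in gated creatine cells, against 58.3 and 86.1 CPM in non-dividing cells. *S1pr1*, which lets T cells leave tissue, stood at 2.99 and 3.90 CPM against 51.5 and 75.3 CPM. *Il7r*, the receptor of the survival cytokine IL-7, stood at 31.4 and 26.7 CPM against 138 and 168 CPM. Non-dividing cells thus held the higher level of each in both libraries. A ratio below 0 in CPM need not mean fewer molecules per cell, because gated cells held about 3 times the UMIs. Per cell, the naive and memory list had medians of -0.17 and -1.12. Of the 28 lists other than markers of other cells, gate and reference genes, the mitochondrial genome and creatine metabolism, it was the 1 with a median below 0 per cell, and 10 lay below 0 in CPM. Markers of other cells were past the fold downward too, in 4 of 9 NK cell and 2 of 4 B cell genes. So were 2 of 15 monocyte and macrophage, 1 of 4 neutrophil and 1 of 4 gamma-delta T cell markers. None of 10 dendritic cell and 4 CD4 and regulatory T cell markers passed, and 1 of 8 melanoma markers, *Dct*, was higher. In each library 1 cell gave most of the gated UMIs of *Dct*. With the gate set on thinned cells its log2 ratios were -4.57 in control and -0.99 in creatine cells, so its direction did not hold.

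Interferon-stimulated genes were lower in CPM in 11 of 20, with medians of -1.05 and -1.21. *Ifit3*, an antiviral effector, stood at 9.32 and 9.35 CPM against 55.9 and 89.3 CPM, and *Isg15*, a ubiquitin-like protein, at 29.3 and 38.9 CPM against 64.1 and 127 CPM. Among 11 cytokine and chemokine genes none was higher and 2 were lower, *Ccl5* and *Il2*, the latter at 21 UMIs or more in each class and with ratios above 0 against the deep non-dividing cells. *Ccl5*, a chemokine that draws T cells, stood at 1708 and 2687 CPM against 6813 and 10386 CPM, while *Ifng* stood at 326 and 551 CPM against 261 and 544 CPM. None of 11 inhibitory receptors, 14 effector transcription factors, 18 T cell receptor and signaling genes and 9 MHC class I genes passed in either direction. *Pdcd1*, which encodes PD-1, stood at 213 and 269 CPM against 226 and 233 CPM. The early activation gene *Cd69* was the 1 of 12 costimulation and activation genes that passed, at 22.1 and 26.8 CPM against 63.9 and 102 CPM.

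Of 14 granzyme and killing genes 4 were higher: *Gzmc*, *Gzmd*, *Gzme* and *Gzmf*, neighbors that are close in sequence and may share reads. The list had medians of 0.77 and 0.74, and 0.62 in the creatine library with *Gzmg*, at 0 UMIs in its non-dividing cells, set to a floor of 3 UMIs there. *Gzmc* had log2 ratios of 2.87 and 2.35, from 487 and 155 UMIs in non-dividing cells, and *Gzmf* stood at 999 and 239 CPM against 421 and 49.3 CPM. *Gzmb*, the main granzyme of effector cells, stood at 1618 and 1721 CPM against 700 and 1044 CPM, log2 ratios of 1.21 and 0.72. Against the deep non-dividing cells, those above the lower quartile of gated depth, the list medians were -0.088 in control and -0.26 in creatine cells. There *Gzmd*, *Gzme* and *Gzmf* turned to log2 ratios of -0.79, -0.83 and -1.06 in the control library and -1.53, -0.95 and -0.21 in the creatine library, and *Gzmc* to -0.21 in the latter.

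Outside these lists, the 10 genes with the largest ratios in the smaller of the 2 libraries were *BC030867*, *Hist1h2af*, *Ska1*, *Sapcd2*, *Cenpi*, *Kif14*, *Aunip*, *Lrr1*, *Shcbp1* and *Fancd2*, among genes with at least 100 UMIs. *Ska1*, a subunit that holds kinetochores to microtubules, stood at 41.8 and 48.0 CPM against 0.457 and 0.323 CPM. *Kif14*, a kinesin of cytokinesis, stood at 30.5 and 29.2 CPM against 0.457 and 0.323 CPM. *BC030867* had 242 and 254 UMIs in gated cells and 0 in non-dividing cells of both libraries, where 1 UMI is 0.152 and 0.161 CPM. *Hist1h2af* was at 0 UMIs there too, and *Cenpi* at 1 and 0. Ratios over 0 rest on an added 0.5 and ratios over 1 UMI on a single count. The places of these genes among the 10 are therefore uncertain. The 10 with the largest ratios downward were *Tdrp*, *Dtx1*, *Treml2*, *Nsg2*, *Klra6*, *Tcp11l2*, *F2rl1*, *Kcnj8*, *Hp* and *Pik3ip1*. *Pik3ip1*, an inhibitor of PI3 kinase that resting T cells express, stood at 4.44 and 3.84 CPM against 26.2 and 25.3 CPM, and *Dtx1*, a regulator of Notch signaling, at 0.241 and 0.668 CPM against 3.81 and 14.5 CPM.

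The gated cells were divided by gate UMIs into 5 to 9 (212 control and 173 creatine cells), 10 to 19 (215 and 142) and 20 or more (486 and 383), with median depths from 14853 and 18244 to 24211 and 26925 UMIs. The sum of the 101 G2/M genes went from 6962 to 10047 to 16152 CPM with PBS and from 7596 to 10346 to 17571 CPM with creatine, against 4820 and 4781 CPM in S-gene cells. *Ccnb1* went from 29.1 to 53.3 to 176 CPM in control and from 31.1 to 48.6 to 164 CPM in creatine cells. *Cenpf* went from 63.4 to 122 to 479 CPM and from 40.5 to 112 to 448 CPM. In both libraries these genes were thus highest where the gate genes were, which the split by gate UMIs fixes in part, and depth differed along it too.

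Replication genes ran another course. Their sum was 2663, 2943 and 2224 CPM over the 3 ranges in control and 3348, 3432 and 2538 CPM in creatine cells, lowest in the cells with 20 or more gate UMIs. *Mcm5* stood at 137, 160 and 117 CPM and at 174, 176 and 133 CPM, against 185 CPM in S-gene cells of both libraries, a class that its own UMIs help to define. Summed histones were higher from range to range, like the G2/M genes, from 3629 to 5800 to 6829 CPM in control and from 1919 to 2624 to 3567 CPM in creatine cells. Cytokines and chemokines had sums of 6954, 4922 and 4420 CPM in control and 10104, 7934 and 7607 CPM in creatine cells. Naive and memory genes summed to 172, 144 and 140 CPM in control and to 166, 133 and 119 CPM in creatine cells, and the intervals of the lowest and the highest range did not overlap in either library.

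**Figure D3:**
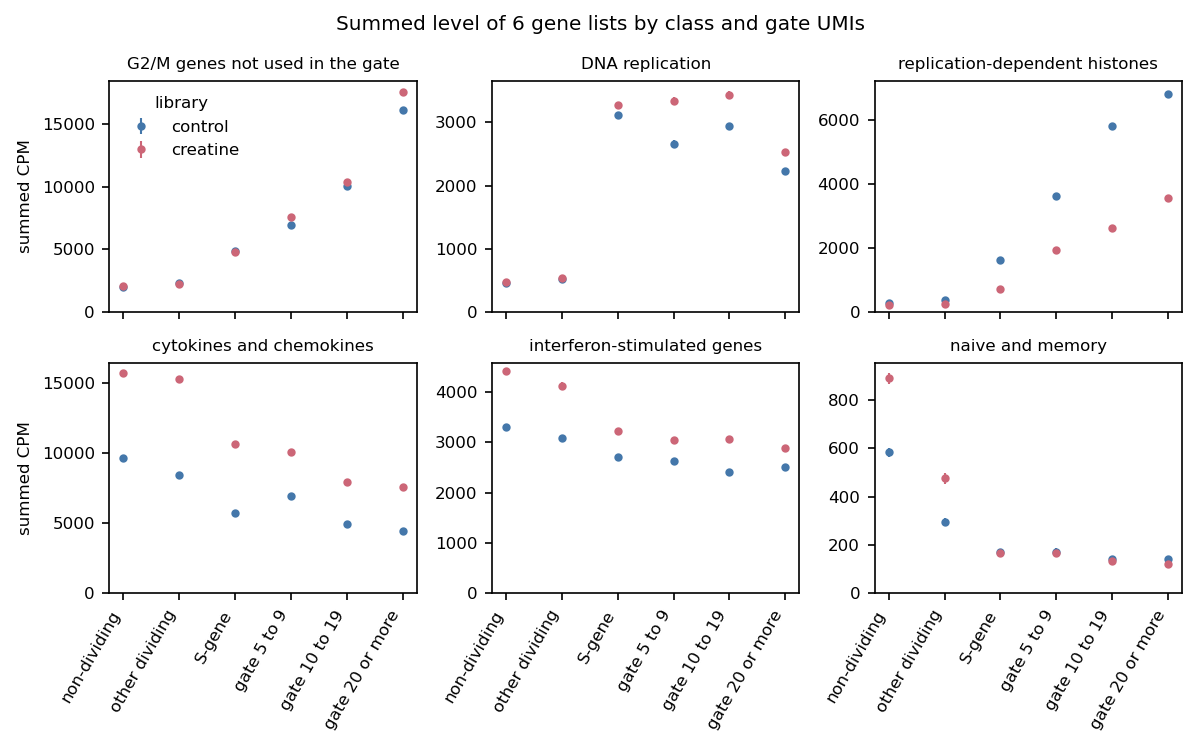
Summed CPM (y axis, linear from 0) of 6 gene lists in 3 classes of ungated CD8 T cell and in gated cells by gate UMIs (x axis), with Poisson intervals mostly smaller than the points. G2/M genes and histones are highest at 20 or more gate UMIs, replication genes are lower there than at 10 to 19.

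Between the libraries, the gated cells were compared for their G2/M program first. A gene was counted when its CPM differed by at least 1.5-fold and the CPM intervals did not overlap. Of 12081 genes with at least 20 UMIs, 344 were higher in the creatine library, 2.85%, and 542 were lower, 4.49%. Without cells of 2 or more other-lineage UMIs, 205 were higher and 167 lower, and the balance of directions turned. Of the 101 G2/M genes 2 were higher and none lower, with a median log2 ratio of 0.06 where that of all genes was 0.03. Without cells of 2 or more other-lineage UMIs the G2/M median was -0.095. The median of the same genes was -0.11 in S-gene cells and 0.01 in non-dividing cells. The 2 were alpha-tubulins: *Tuba1b* stood at 796 CPM in control and 1244 CPM in creatine cells, a log2 ratio of 0.64 (0.61 to 0.67), and *Tuba1c* at 197 and 318 CPM, a ratio of 0.69 (0.63 to 0.75). Both were also higher in non-dividing cells, by 0.27 and 0.39. *Plk1*, *Aurkb* and *Cdk1* had ratios of 0.02, -0.01 and 0.06.

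DNA replication genes had a median ratio of 0.23 in gated cells, 0.00 in S-gene cells and -0.14 in non-dividing cells. Of 30 genes 27 lay above 0, where 56.1% of all genes did, and 1 passed the 1.5-fold count. This was *Ccne2*, a cyclin of the G1 to S transition, at 19.8 and 35.2 CPM, a ratio of 0.83 (0.65 to 1.01). In the 305 and 168 gated cells with fewer than 5 S-gene UMIs *Ccne2* had a ratio of -0.57 and the list a median of -0.10. That limit is on raw UMIs of genes that belong to the list, so the list median there does not bear on the difference. *Ccne2* is not among the genes of the limit, and its direction did not hold under it.

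Replication-dependent histones split by gene. The sum of the 15 genes was 6077 CPM in control and 3088 CPM in creatine cells, a log2 ratio of -0.98 (-0.99 to -0.96), while the median gene had 0.05. *Hist1h2ap* made up 64.6% of that sum in control cells and 33.2% in creatine cells, at 3923 and 1027 CPM, a ratio of -1.93 (-1.96 to -1.91). *Hist1h2ae* (364 and 183 CPM), *Hist1h2ab* (93.8 and 56.3 CPM) and *Hist1h3b* (42.7 and 18.6 CPM) were lower as well, and *Hist2h2bb* was higher, at 21.7 and 35.3 CPM. *Hist1h1b*, with 598 and 566 CPM, differed by -0.08. *Hist1h2ap* was also lower in S-gene cells (-2.31) and non-dividing cells (-1.63), so the direction was shared with other classes, and its copies may share reads.

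Of 11 cytokine and chemokine genes 4 were counted as higher in the creatine library and none as lower, with a median log2 ratio of 0.56 in gated, 0.96 in S-gene and 0.72 in non-dividing cells. The gated median was 1.11 without cells of 2 or more other-lineage UMIs and 0.95 with under 5 S-gene UMIs. *Ifng*, the main macrophage-activating cytokine of T cells, stood at 326 and 551 CPM, a ratio of 0.76 (0.71 to 0.80). *Ccl3* stood at 1142 and 2092 CPM, a ratio of 0.87 (0.85 to 0.90), and *Ccl4* at 1201 and 2219 CPM, a ratio of 0.89 (0.86 to 0.91), and both are chemokines that attract leukocytes. *Ccl5* stood at 1708 and 2687 CPM, a ratio of 0.65 (0.63 to 0.67). In non-dividing cells the same 4 genes had ratios of 1.06, 1.13, 1.06 and 0.61. *Il2*, with 1.01 and 1.61 CPM, and *Xcl1*, with 214 and 155 CPM, were not counted as higher. Without the cells over 500 CPM of other lineages, the 4 ratios in gated cells were 0.69, 0.79, 0.83 and 0.65.

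Granzymes went both ways. Of 14 killing genes 1 was higher and 5 lower in gated creatine cells. *Gzma* stood at 39.0 and 94.2 CPM, a ratio of 1.27 (1.15 to 1.40), though single cells gave 25.5% and 22.3% of its UMIs. *Gzmc* stood at 541 and 127 CPM, a ratio of -2.09 (-2.16 to -2.02), with UMIs in 393 of 913 and 179 of 698 cells. *Gzmf* stood at 999 and 239 CPM, a ratio of -2.06 (-2.11 to -2.02), and *Gzmd* and *Gzme* had ratios of -1.88 and -1.87. *Gzmg* had 413 and 4 UMIs. UMIs of *Gzmf* were found in 38.9% and 20.3% of gated control and creatine cells, and of *Gzmd* in 15.6% and 8.02%. For *Gzme* the shares were 18.0% and 9.17%, and for *Gzmg* 3.29% and 0.287%. The median gated cell held none of these granzymes in either library. These granzymes were lower in the creatine library in non-dividing cells too, by -1.57 for *Gzmc* and -3.09 for *Gzmf*. *Gzmb*, at 1618 and 1721 CPM, had a ratio of 0.09 in gated and 0.58 in non-dividing cells, and *Prf1*, the pore-forming perforin, stood at 700 and 961 CPM, below the count. Without the cells over 500 CPM of other lineages *Gzmc* and *Gzmf* had ratios of -2.31 and -2.37.

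Of 11 inhibitory receptors *Lag3* was higher, at 156 and 266 CPM, a ratio of 0.77 (0.70 to 0.83), and *Lilrb4a*, which myeloid cells also express, was lower, at 5.36 and 2.39 CPM. Non-dividing control and creatine cells held a mean of 1.83 and 2.95 UMIs of *Lag3* per cell, and the creatine cells were deeper. A UMI of *Lag3* was found in 58.6% and 54.2% of them. *Pdcd1* and *Havcr2* (TIM-3) were below the count, at 213 and 269 CPM and at 105 and 135 CPM. *Nr4a2*, an immediate target of T cell receptor signals, stood at 105 and 198 CPM, a ratio of 0.91 (0.83 to 0.99), and *Nr4a1* at 14.5 and 22.7 CPM. *Bhlhe40*, a transcription factor of cytokine-producing T cells, was lower, at 241 and 155 CPM, as was *Il2ra*, the high-affinity chain of the IL-2 receptor, at 65.0 and 39.7 CPM. *Cd226*, a costimulatory receptor, was higher, with a ratio of 0.62. Of all genes 56.1% lay above 0 in gated and 52.5% in non-dividing cells. Of 14 effector transcription factors 12 and 11 did, with medians of 0.28 and 0.12. Of 18 T cell receptor and signaling genes 16 and 17 did, with medians of 0.20 and 0.16. Among them *Trbc1* was higher, at 315 and 793 CPM, a ratio of 1.33 (1.29 to 1.37), beside *Trbc2* at 1247 and 1271 CPM. *Trbc1* and *Trbc2* are alternative constant segments of the receptor's beta chain, close in sequence, so that their split is uncertain. *Cd6*, a surface regulator of T cell activation, was lower, at 96.1 and 50.6 CPM. Of 11 CD8 activation genes that the study chose on these samples, 2 were counted as higher (*Ifng* and *Ccl5*) and all 11 lay above 0 in gated cells, beside 56.1% of all genes, which is no independent evidence of a direction.

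**Figure D4:**
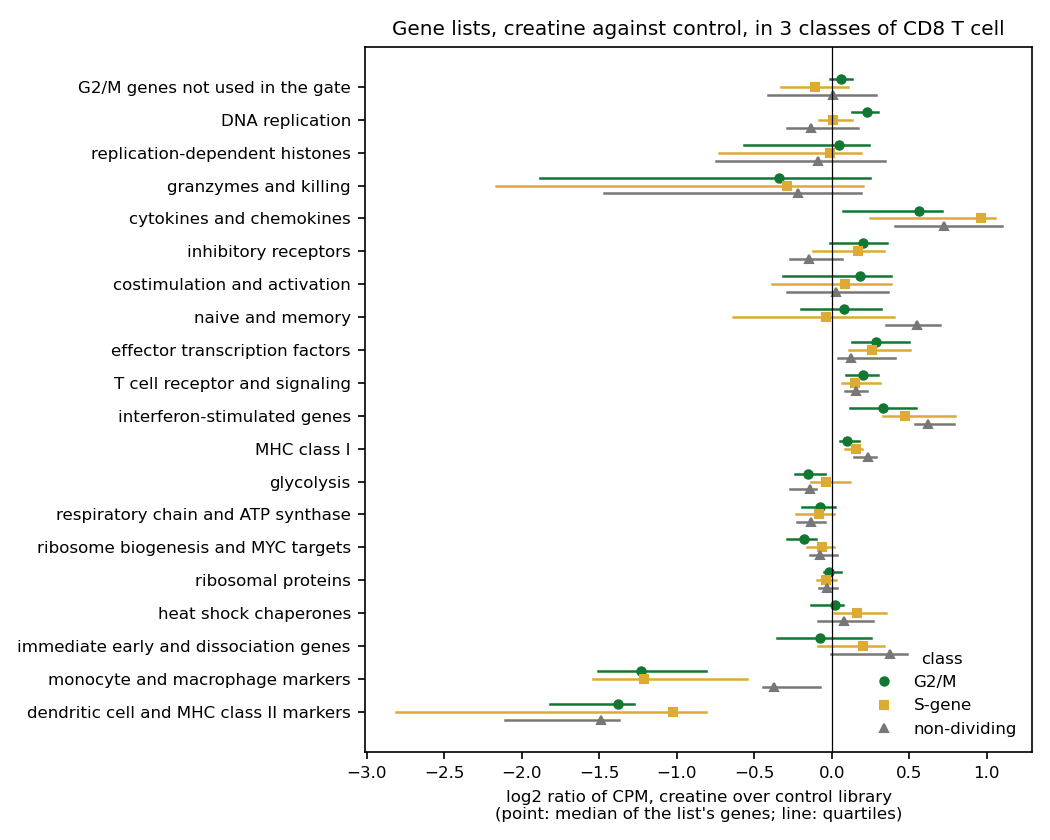
Log2 ratio of CPM, creatine over control library (x axis), for gene lists (y axis) in G2/M-gated, S-gene and non-dividing CD8 T cells. Points are medians over the genes of a list and lines quartiles; the cytokine medians are 0.56, 0.96 and 0.72, and the macrophage and dendritic cell marker medians lie below 0 in all 3 classes.

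Of 11 naive and memory genes that could be compared, *Klf2* (6.47 and 14.2 CPM) and *Id3* (1.35 and 2.95 CPM) were higher and *Ccr7*, the homing receptor for lymph nodes, was lower, at 27.9 and 6.01 CPM, a ratio of -2.22 (-2.53 to -1.92). In non-dividing cells *Ccr7* had a ratio of 0.14. Mature dendritic cells also express *Ccr7*, and its part from their RNA was not tested. Without the cells over 500 CPM of other lineages the ratio was -2.66, and in gated cells with fewer than 5 S-gene UMIs -0.64. *Tcf7* had 6.90 and 7.12 CPM. Interferon-stimulated genes had a median of 0.33 in gated and 0.62 in non-dividing cells, and 18 of 20 lay above 0 in gated cells, where 56.1% of all genes did. Of these, *Zbp1*, a sensor of nucleic acids (58.4 and 96.5 CPM), *Usp18* (3.86 and 6.51 CPM) and *Igtp* (46.8 and 70.6 CPM) were counted as higher. None of 9 MHC class I genes was counted, and all 9 lay above 0, with a median of 0.10, which was -0.030 without cells of 2 or more other-lineage UMIs.

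Of 20 glycolytic genes *Eno3* was higher, at 54.2 and 82.8 CPM, and *Eno1* and *Hk2* were lower, at 582 and 369 CPM and at 77.7 and 46.8 CPM. The list's median was -0.16, and 4 of its 20 genes lay above 0, where 56.1% of all genes did. Ratios of *Eno1* were -0.66 in gated, -0.51 in S-gene and -0.61 in non-dividing cells. Of 28 respiratory chain genes 10 lay above 0, with a median of -0.07, which was 0.019 without cells of 2 or more other-lineage UMIs. None of these and none of the 5 genes of creatine metabolism that could be compared was counted. *Odc1*, the first enzyme of polyamine synthesis, was the 1 counted gene of 21 in the ribosome biogenesis and MYC target list, at 406 and 261 CPM. Of that list 2 genes lay above 0, with a median of -0.18, which was 0.17 without cells of 2 or more other-lineage UMIs and 0.050 with under 5 S-gene UMIs. Stress genes gave 2 of 10 heat shock chaperones, *Hspa1a* with a ratio of -1.30 and *Hspa1b* at 5.02 and 2.50 CPM, and 2 of 15 immediate early genes, *Atf3* with -2.01 and *Nfkbia* with -0.61, all lower in the creatine library. *Gadd45b* was the 1 counted DNA damage gene, with a ratio of -0.64, which was 0.18 in gated cells with fewer than 5 S-gene UMIs.

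**Figure D5:**
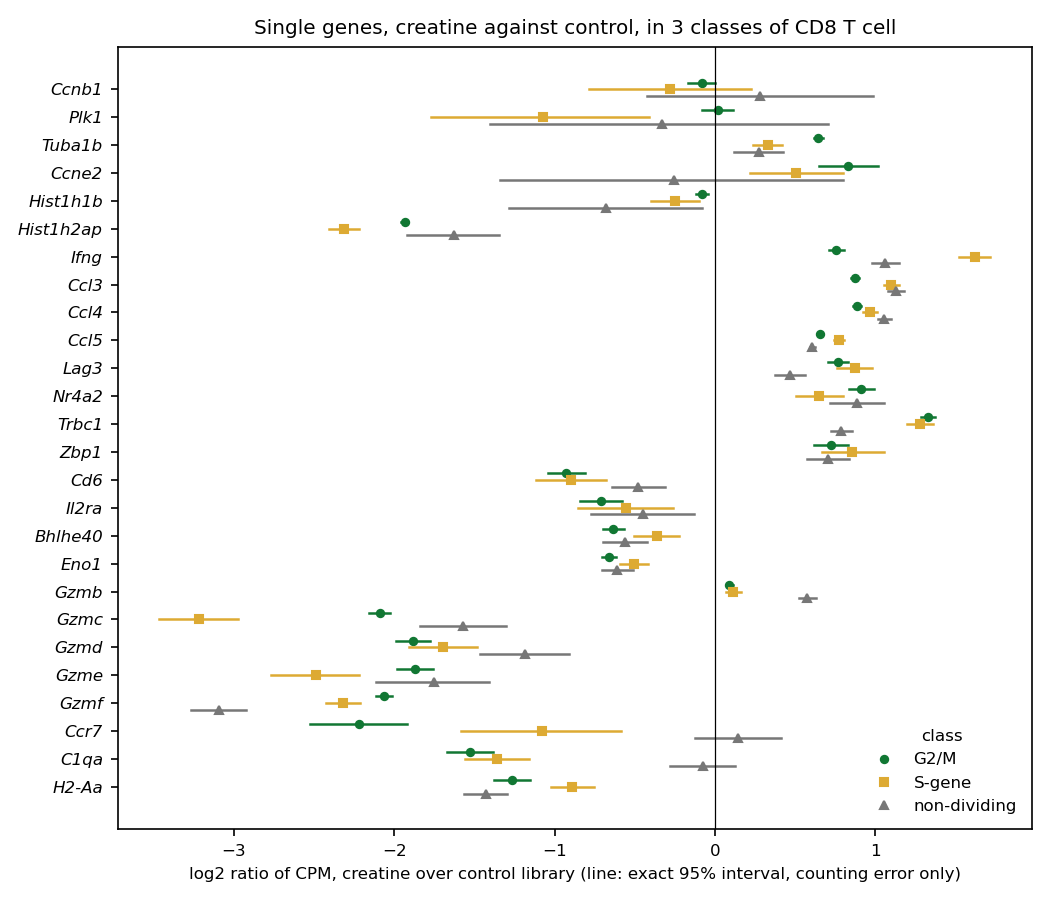
Log2 ratio of CPM, creatine over control library (x axis), for single genes (y axis) in G2/M-gated, S-gene and non-dividing CD8 T cells; lines are exact 95% intervals of counting error. *Gzmc*, *Gzmd*, *Gzme* and *Gzmf* lie below 0 in all 3 classes, *Ccl3*, *Ccl4*, *Ccl5* and *Ifng* above 0, and *Plk1* and *Ccnb1* near 0 in gated cells.

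Markers of other cells moved with the library and stand beside each of these comparisons. Of 15 monocyte and macrophage markers 13 were counted as lower in gated creatine cells and none as higher. Their sum was 1108 CPM in control and 611 CPM in creatine cells, with *Cst3* the most abundant in both, and no marker was at 0. The sum in non-dividing cells was 1620 and 1375 CPM. *C1qa*, a complement component of macrophages, stood at 81.3 and 28.2 CPM, a ratio of -1.53 (-1.67 to -1.38), and 1 creatine cell gave 41.0% of its UMIs. Of 8 dendritic cell and MHC class II markers that could be compared 7 were lower, and the sum over 11 was 601 and 260 CPM, led by *Cd74*. Of 3 comparable B cell markers *Igkc* was lower (37.6 and 17.8 CPM), while *Ms4a1* was at 0 in both libraries. The sum of B cell markers was 64.5 and 43.6 CPM. Neutrophil markers summed to 4.73 and 2.06 CPM, with *Csf3r* the most abundant, *S100a8* and *S100a9* lower and 1 of 6 markers at 0 in creatine cells.

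NK cell markers summed to 278 and 193 CPM, with *Klre1* the most abundant and lower (150 and 91.8 CPM), and *Ncr1* and *Klra8* higher. CD4 and regulatory T cell markers summed to 241 and 231 CPM, led by *Tnfrsf4*, with *Cd4* at 0, and none was counted. Gamma-delta T cell markers summed to 13.7 and 34.8 CPM, led by *Tcrg-C2*, which was higher (11.1 and 28.2 CPM), as was *Trdc*, and 1 of 5 was at 0 in control cells. Melanoma markers summed to 81.9 and 145 CPM, led by *Dct*, with 5 of 8 higher and 2 lower, and 1 cell gave 85.1% and 94.7% of the UMIs of *Dct*. The part of other cells' RNA in the library differences was not tested, and only values under filters on other-lineage markers are given. Without cells of 2 or more such UMIs, 205 genes were counted as higher and 167 as lower. The medians of G2/M genes, inhibitory receptors, costimulation, MHC class I, the respiratory chain and ribosome biogenesis turned in sign there. Without the cells over 500 CPM *Trbc1*, *Lag3*, *Hist1h2ap* and *C1qa* had ratios of 1.37, 0.75, -1.94 and -1.13.

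Outside the lists, the 10 genes with the largest ratios toward the creatine library, among genes with at least 100 UMIs, were *Trav7d-3*, *Ltf*, *Lrrc9*, *Trav16*, *Gm47769*, *AC163720.3*, *Cpe*, *Slc16a10*, *Lgi2* and *Mgll*. *Slc16a10*, a transporter of aromatic amino acids, stood at 3.33 and 17.9 CPM, with UMIs in 63 of 913 and 197 of 698 cells, and had a ratio of 1.22 in non-dividing cells against 2.42 in gated cells. The UMIs of *Cpe* and *Mgll* in the creatine library came from 1 cell to 95.6% and 93.7%. Among the 10 with the largest ratios toward the control library were *Trav7-3*, *Gm48362*, *Mmp12*, *Thbs1*, *Clec4n*, *Mcts2*, *Fabp4*, *Rpl39l* and *Sparc*. Their ratios in non-dividing cells, in the same order, were -7.17, -4.62, -1.78, -0.34, -1.27, -2.24, -0.79, -1.33 and 1.08, again some from few UMIs. Among gated cells, 1 control cell gave 54.1% of the UMIs of *Mmp12*, 81.1% of *Thbs1* and 97.7% of *Sparc*. *Trav7-3* had 195 and 1 UMIs and *Trav7d-3* had 0 and 147. These variable segments of the T cell receptor alpha chain are near-identical copies, so that their split between the libraries is uncertain.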

How the data were processed

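Gene by cell tables of UMI counts were deposited by the authors, 1 per library, made with Cell Ranger 3.0.2 and mm10 per the submitters' processing notes, and the counts were not normalized. The 2 tables held 31053 features and 80434564 and 72898494 UMIs in 7649 and 6503 cells. Cells with more than 25% mitochondrial UMIs (408 and 274) were left out and doublets were kept. For 35 symbols carried by more than 1 feature, the feature with the most UMIs was used. UMIs were summed per class and library and given as CPM with exact Poisson intervals, log2 ratios with exact conditional binomial intervals, and shares with Clopper-Pearson intervals, each at 95%. In log2 ratios 0.5 was added where a sum was 0. Features needed 20 UMIs over the classes compared. The depth of single genes follows from these sums, and cells of 1 library are not replicates, so no test was run.

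The members and the 40 lists (523 genes) were chosen with earlier results of these data known. Genes outside the lists were named by a rule of size, the 10 largest ratios per direction among genes with at least 100 UMIs past the fold, ranked by the smaller of both libraries for the class ratio. Alternatives changed the gate, the filters, the scaling (TMM, edgeR 4.0.16 in R 4.3.3) and the cells kept. Calculations ran in Python 3.11.15 with scipy 1.17.1, numpy 2.4.6 and pandas 2.3.3, figures were drawn with matplotlib 3.10.9, and the calculations were tested on simulated data. Promoter sequences came from RefSeq for GRCm38.p6. A few genes of these lists and of the naming rule are not reported here.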

Additional observations from a re-analysis of the deposited data

Results flagged for a closer look

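The library ratio of *Dct*, an enzyme of melanin synthesis and a melanoma marker, had opposite signs in gated and non-dividing cells. Its log2 ratio of creatine over control was 0.61 (0.48 to 0.74) in gated cells, from 42.7 to 65.1 CPM, and -1.37 (-1.95 to -0.82) in non-dividing cells, from 15.8 to 6.13 CPM. In gated cells 1 cell gave 85.1% of its UMIs with PBS and 94.7% with creatine. The gated ratio was -0.93 with the gate set on thinned cells, -0.047 with equal weight per cell, -0.58 without cells over 500 CPM of other-lineage markers and -4.82 with under 5 S-gene UMIs, so its sign did not hold. The difference between the classes was not tested, as each library is a single sample. Of 40 listed or named genes past the 1.5-fold count in both classes, *Dct* was the 1 with opposite signs.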

How the results depend on the processing

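No paired analysis was possible because each group has 1 library, and for the same reason no library could be left out. Of 3969 values recomputed under 19 alternatives, 5 of them chosen after seeing the data (no cells over 500 CPM of other lineages, no shared barcodes, under 5 S-gene UMIs, UMIs per cell, and a reference with S-gene cells that lack *Mki67* and *Top2a*), 3199 stayed within their error, 724 moved and 46 reversed, and the cause was not tested. The gated share in control and creatine cells was 43.0% and 41.7% at 3 or more gate UMIs, 28.8% and 26.9% at 8 or more, 24.1% and 22.6% by *Ccnb1*, *Plk1*, *Cenpf*, *Aspm* and *Hmmr*, 32.3% and 26.7% after thinning to 5000 UMIs, 16.9% and 23.8% without cells of 2 or more other-lineage UMIs, where the order of the libraries turned, and 11.5% and 7.96% with under 5 S-gene UMIs. Without cells over 500 CPM it was 37.6% in control cells and 34.6% in creatine cells (668 of 1929). The library median of cytokines was 0.69 at 8 or more gate UMIs, 0.65 with the other gate genes and 0.70 when thinned. This median was 1.11 without cells of 2 or more other-lineage UMIs, 0.45 at a minimum of 100 UMIs and 0.95 with under 5 S-gene UMIs. That of interferon-stimulated genes was 0.58 without cells over 500 CPM and 0.49 with under 5 S-gene UMIs.

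Counts of genes past the fold moved. Without cells of 2 or more other-lineage UMIs 515 were higher and 176 lower in gated than in non-dividing cells, and 205 and 167 between libraries. With under 5 S-gene UMIs these counts were 365, 146, 201 and 328. Against non-dividing cells above the lower quartile of gated depth 458 were higher, and per cell 8987 were higher and 20 lower. Lower in creatine were 359 at a minimum of 100 UMIs and 323 without cells over 500 CPM. The class medians of G2/M genes were 5.68 and 5.87 per cell. At 5000 UMIs instead of 2000, the median share of gated cells with a UMI of a G2/M gene was 27.3% and 29.4%, against 2.53% and 2.27% of non-dividing cells.

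Signs turned as follows. Without cells of 2 or more other-lineage UMIs the library medians were -0.095 for G2/M genes, -0.14 for inhibitory receptors and -0.015 for costimulation. They were -0.030 for MHC class I, 0.019 for the respiratory chain and 0.17 for ribosome biogenesis. Under the same filter the library ratio of *Gadd45b* was 0.33, and *Gzmd* had a class ratio of -0.18 in control cells. Against deep non-dividing cells the class medians in control and creatine cells were -0.010 and -0.058 for G1 genes, -0.088 and -0.26 for granzymes, 0.13 and 0.11 for T cell receptor genes, and -0.29 for glycolysis in creatine cells. There *Cdkn1a* had -0.65 and -1.22, *Gzmd* -0.79 and -1.53, *Gzme* -0.83 and -0.95, *Gzmf* -1.06 and -0.21, *Il2* 0.64 and 1.08, and *Gzmc* -0.21 in creatine cells. With under 5 S-gene UMIs the class medians were 0.093 and 0.077 for MHC class I, and in creatine cells 0.079 for cytokines, 0.013 for costimulation, 0.055 for T cell receptor genes and -0.61 for *Cdkn1a*, and the library values were -0.10 for DNA replication, 0.050 for ribosome biogenesis, -0.57 for *Ccne2* and 0.18 for *Gadd45b*. *Dct* had class ratios in control cells of -4.26 with the other gate genes, -4.57 when thinned, -0.53 with equal weight per cell and -0.53 without cells over 500 CPM, and in creatine cells -0.99 when thinned, -0.63 without cells over 500 CPM and -1.28 with the wider reference. Its library ratio was -0.93 when thinned, -0.047 with equal weight, -0.58 without cells over 500 CPM and -4.82 with under 5 S-gene UMIs.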
